A study of Mus musculus with 24 samples.

Results

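The genes described here are 48 mouse genes of transforming growth factor beta (TGF-beta) and bone morphogenetic protein (BMP) signalling, taken as a list of names. They comprise 14 ligands, 4 latency proteins, 10 receptors or coreceptors, 7 antagonists, 6 signalling Smads and 7 feedback or target genes. Of the 48, 39 had a mean of at least 5 counts over the 24 libraries and were tested, among 14361 genes tested the same way. The other 9 (Bmp2, Bmp4, Bmp6, Bmp7, Inhbb, Gdf6, Gdf10, Bmpr1b and Nog) were under that mean, so a count or median over the 39 describes the genes that passed and does not stand for the whole list. Gdf5, just above the limit, had a mean of 5.25 counts, and Bmp6, just below it, had 3.38.

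The study asked how TAZ-CAMTA1 and YAP-TFE3, fusions found in epithelioid hemangioendothelioma, a vascular sarcoma, change transcription next to the proteins they derive from. RNA was sequenced from NIH 3T3 cells, an immortalized mouse fibroblast line, in 8 groups of 3 libraries. Each line was a pool of cells stably transduced with a pBabeNeo retrovirus and selected with G418, so expression came from the viral vector and not from the genes' own promoters, and the libraries of a group came from separate transductions. EV carried the empty vector and had been confluent for 48 h, and EVsub carried the empty vector at sub-confluence. TAZ4SA and YAP5SA expressed full-length TAZ and YAP in which serines phosphorylated by the LATS kinases were changed to alanine, which makes them hyperactive. TAZ-CAMTA1 and YAP-TFE3 expressed the fusions, and TFE3 expressed full-length TFE3. These 5 groups had also been confluent for 48 h. CAMTA1 expressed full-length CAMTA1 in sub-confluent cells and was therefore compared with EVsub. All the expressed proteins carried a Flag tag. The description of YAP-TFE3 replicate 3 repeats that of replicate 2, and it is taken here as replicate 3, as titled.

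TGF-beta and activin ligands bring type I and type II receptor kinases together at the cell surface, and the type I receptor then phosphorylates Smad2 and Smad3, whereas BMP ligands act mainly through Smad1, Smad5 and Smad9. Phosphorylated Smads bind Smad4 and enter the nucleus, where they act on target genes that include inhibitors of the pathway itself. Fibroblasts secrete TGF-beta in a latent form held in the extracellular matrix by latency proteins, and respond to active TGF-beta by making matrix, while YAP and TAZ bind DNA through TEAD factors and can form complexes with Smads.

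Library totals ran from 16471181 to 30132586 counts, with a median of 22298975. Levels are given as counts per 1000000 after TMM normalization (normalized CPM), as 3 values in the order of replicates 1, 2 and 3. Differences are log2 fold changes with their standard error (SE) from edgeR's quasi-likelihood test in 1 fit of the 24 libraries. A gene was called when its p, adjusted by Benjamini-Hochberg over the 14361 genes tested, was under 0.05. All 9 fibroblast markers checked (Col1a1, Col1a2, Col3a1, Pdgfra, Pdgfrb, Thy1, Vim, Lum and Dcn) were at 1 CPM or more in every group, with Col1a2 the most abundant in EV at a mean of 8008 CPM. Their summed means were 22023 CPM in EV, 16619 in TAZ4SA, 22425 in YAP5SA, 27557 in TAZ-CAMTA1, 29833 in YAP-TFE3, 16456 in TFE3, 19300 in EVsub and 14261 in CAMTA1. Single markers moved both ways, with means in EV, TAZ4SA, YAP5SA and EVsub of 2433, 416, 54.1 and 265 for Dcn, 56.1, 24.2, 3.31 and 4.34 for Lum, 1194, 500, 222 and 722 for Pdgfra, 38.0, 120, 195 and 73.9 for Thy1 and 3532, 4386, 8076 and 4079 for Vim. Summed levels in EV were a mean of 0.236 CPM for 5 epithelial markers, 0.0766 for 5 leukocyte, 0.102 for 4 muscle and 3.78 for 5 endothelial markers, with Epcam, Krt5, Cldn4, Cd3e, Adgre1, Myod1 and Myog at 0. Some markers of other cell types were higher outside EV, with means of 8.41 CPM for Krt14 in YAP5SA (0.0281 in EV), 9.63 for Kdr in TAZ4SA (0.0749), 7.88 for Vwf in YAP-TFE3 (0.567), 1.67 for Cdh5 in TAZ-CAMTA1 (0.0147), and 6.46 for Des (0.0881) and 1.32 for Itgam (0.0159) in TAZ4SA. Tek was lower, at 3.05 in EV, 0.208 in TAZ4SA and 0.602 in YAP5SA, and Cdh1, at 0.208 in EV, was at 0.0335 in YAP5SA, 0.664 in TAZ-CAMTA1 and 0.654 in YAP-TFE3. Their part in the results was not tested. In bulk RNA, fewer cells making a transcript and less transcript per cell cannot be told apart.

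EV replicate 2 stood apart from the other 2 EV libraries for 6 of the genes averaging 50 counts or more, being more than 2-fold from both. Inhba (0.675, 3.58 and 1.06 CPM) and Grem1 (0.464, 1.62 and 0.531) were higher in it. Smad6 (5.32, 2.01 and 5.35), Id1 (9.71, 3.96 and 10.9), Id2 (29.1, 7.50 and 30.8) and Id3 (79.0, 17.9 and 80.8) were lower in it. No other library differed that far from both others of its group for more than 2 genes with that many counts. Calls against EV of these 6 genes are given with and without this library, and the cause of its difference was not tested. Of the other genes, those called only without it were Bambi in TAZ4SA, at 0.83 (adjusted p = 0.0469), Bmpr2 in TAZ-CAMTA1, at 0.41 (adjusted p = 0.0417), Ltbp4 in YAP-TFE3, at -0.64 (adjusted p = 0.0401), Smad1 in EVsub, at -0.44 (adjusted p = 0.0294), and Tgfb2, given below. TAZ4SA replicate 2 stood apart for Tgfbr1. It also passed this limit for Grem1, which shows nothing, since the TAZ4SA libraries held 1, 0 and 1 Grem1 counts. TAZ4SA replicate 3 stood apart for Inhba and Id2, and EVsub replicate 3 for Id1 and Id2. EVsub replicate 1 stood apart for Inhba, EVsub replicate 2 for Ltbp2, and EV replicate 1 and TAZ-CAMTA1 replicate 2 for Fst.

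The comparisons with EV ask what each expressed protein changes, and they share the EV libraries, so they are not independent of each other. In TAZ4SA against EV, 11 of the 39 were higher and 15 lower (28.2% and 38.5%), where 31.1% and 26.4% of all genes tested were. For YAP5SA against EV the genes called were 11 higher (28.2%) and 20 lower (51.3%), beside 36.3% and 34.9% of all genes. The TAZ-CAMTA1 against EV contrast called 4 higher and 5 lower (10.3% and 12.8%), and 12.5% and 8.98% of all genes. In YAP-TFE3 against EV, 6 of the 39 were higher and 5 lower (15.4% and 12.8%), where 10.6% and 4.74% of all genes tested were. The median log2 fold change of the 39 was -0.10 in TAZ4SA (all genes 0.05), -0.65 in YAP5SA (all genes 0.01), -0.03 in TAZ-CAMTA1 (all genes -0.00) and 0.01 in YAP-TFE3 (all genes 0.00). Without EV replicate 2 the higher and lower counts were 10 and 14 in TAZ4SA, 10 and 21 in YAP5SA, 5 and 7 in TAZ-CAMTA1, and 7 and 7 in YAP-TFE3. The YAP-TFE3 count of 11 became 7 without EV replicate 3 and 6 without YAP-TFE3 replicate 1, and the TAZ-CAMTA1 count of 9 was 15 with no filter on low counts and 6 without EV replicate 3.

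For TFE3 against EV the genes called were 2 higher (5.13%) and 1 lower (2.56%), beside 2.36% and 1.02% of all genes. The CAMTA1 against EVsub contrast called 3 higher and 1 lower (7.69% and 2.56%), and 1.29% and 0.891% of all genes. In EVsub against EV, which compares empty vector cells at both densities, 10 of the 39 were higher and 9 lower (25.6% and 23.1%), beside 12.5% and 9.59% of all genes. Medians of the 39 were -0.02 in TFE3 (all genes -0.02), 0.00 in CAMTA1 (all genes -0.03) and 0.06 in EVsub (all genes 0.02). The TFE3 count of 3 was 1 without EV replicate 2 or 3 or any one TFE3 library, 5 with no filter on low counts and 8 with only these groups in the fit. The CAMTA1 count of 4 was 0 without CAMTA1 replicate 1, 1 without CAMTA1 replicate 2, 7 without EVsub replicate 1, 0 without EVsub replicate 2 and 2 without EVsub replicate 3. Where edgeR gave 0 in CAMTA1, 10 of the 39 without CAMTA1 replicate 1 and 9 without EVsub replicate 2 had an unadjusted p under 0.05, and DESeq2 on all libraries gave 4 calls. The EVsub count of 19 was 12 without EVsub replicate 1, and 7 higher and 8 lower without EV replicate 2.

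Scaling bears on the comparisons that include a full-length TAZ or YAP protein. Library totals in place of TMM factors moved the median log2 fold change of all genes tested from 0.05 to -0.12 in TAZ4SA against EV, from 0.01 to -0.36 in YAP5SA against EV, from 0.00 to 0.17 in TAZ-CAMTA1 against TAZ4SA, from 0.05 to 0.41 in YAP-TFE3 against YAP5SA and from -0.05 to -0.25 in YAP5SA against TAZ4SA. The share of called genes that were higher moved from 54.1% to 41.9% in TAZ4SA against EV, from 51% to 34.5% in YAP5SA against EV, from 48.5% to 62% in TAZ-CAMTA1 against TAZ4SA, from 51.4% to 67.6% in YAP-TFE3 against YAP5SA and from 46.2% to 27.4% in YAP5SA against TAZ4SA. In the same order, the higher and lower counts of the 39 with library totals were 9 and 16, 10 and 24, 17 and 9, 21 and 7 and then 5 and 17. For all 14361 genes tested they were 3424 and 4747, 3565 and 6775, 4816 and 2950, 7066 and 3386 and then 1805 and 4786. Changes below are relative to the TMM scale. Smad2 in YAP-TFE3 against YAP5SA was the one call of the 39 genes that changed sign in any alternative run, from -0.22 to 0.14 with library totals.

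**Figure D1:**
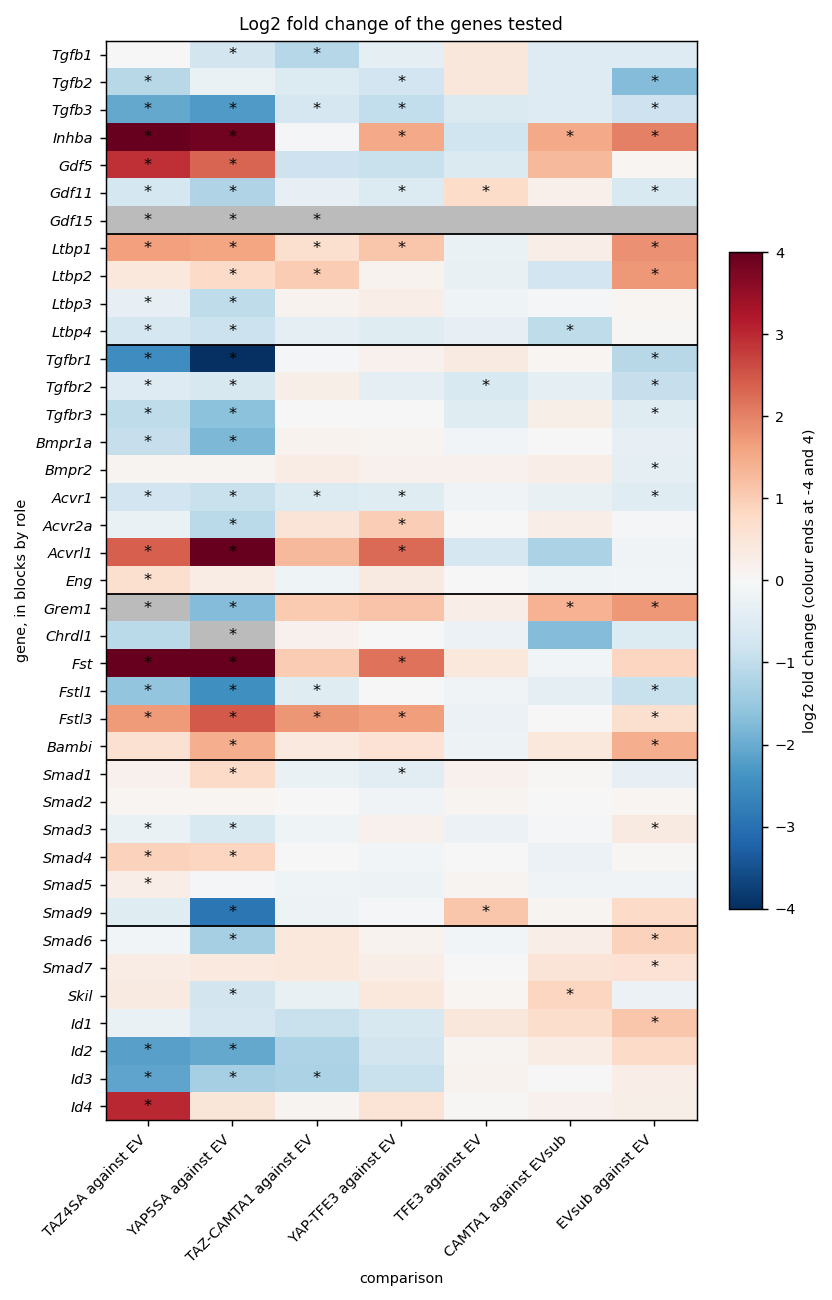
Log2 fold change of each of the 39 genes tested (vertical axis, in blocks by role) in the comparisons with EV or EVsub (horizontal axis), by colour from -4 to 4, with a star where the adjusted p was under 0.05. Grey marks a comparison in which a group had 3 counts or fewer over its libraries. Stars are most frequent in the YAP5SA column, with 31, and the TAZ4SA column, with 26.

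Per kilobase of exon, the most abundant of the genes in EV was Fstl1 at a mean of 320 normalized CPM per kb, followed by Tgfb3 at 56.9, Tgfbr3 at 44.5, Ltbp3 at 33.3 and Id3 at 33.1. Id3 varied so widely between the EV libraries that its place relative to Tgfbr3 and Ltbp3 lay within its spread. Among genes that rose, the ligand Inhba was at 0.277 in EV and the antagonist Fst at 0.127. How reads were assigned by strand is not stated in the sources used here, and some of the genes share exon sequence with a gene on the opposite strand that was itself counted, among them Bmp6 with Txndc5, Acvr2a with Orc4 and Eng with Fpgs.

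**Figure D2:**
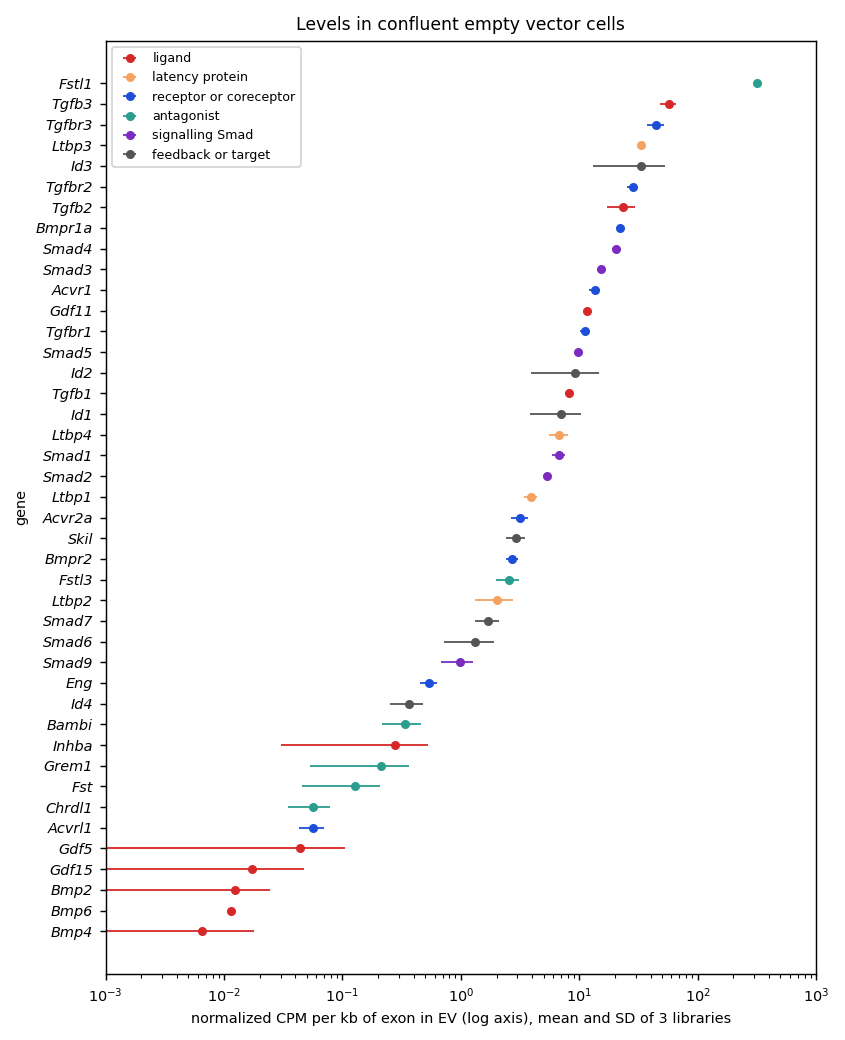
Mean level of each gene with counts in confluent empty vector cells, in normalized CPM per kb of exon on a log axis, coloured by role, with bars of 1 SD over 3 libraries. Fstl1 stands at the top at 320, and the ligands span the range from Tgfb3 at 56.9 down to Bmp4.

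Promoter sequence is shown for 6 of the genes that changed most or moved together in the full-length protein cells, a choice made after their values were seen. The sequences are RefSeq's for GRCm38.p6, from 250 bases before to 50 bases after the start, written 5′ to 3′ on the gene's strand. Promoters were searched on both strands for GGAATG (the TEAD motif), CACGTG (the E-box bound by TFE3), GGCGCC (bound by BMP Smads) and GTCTAGAC (bound by Smads), and capitals mark matches. Inhba is at chr13:16011601-16011900 on the plus strand, Tgfbr1 at chr4:47352972-47353271 on the plus strand and Grem1 at chr2:113758599-113758898 on the minus strand. Id2 is at chr12:25096043-25096342 on the minus strand, Id3 at chr4:136143572-136143871 on the plus strand and Id4 at chr13:48260866-48261165 on the plus strand. Tgfbr1 has 2 entries, and the one nearest its annotated start is shown.
Inhba: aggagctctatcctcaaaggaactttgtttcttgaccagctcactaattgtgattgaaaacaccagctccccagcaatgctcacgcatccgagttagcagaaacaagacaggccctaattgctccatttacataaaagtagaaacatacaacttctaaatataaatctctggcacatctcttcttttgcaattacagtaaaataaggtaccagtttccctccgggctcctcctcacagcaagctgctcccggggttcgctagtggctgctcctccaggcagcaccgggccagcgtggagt
Tgfbr1: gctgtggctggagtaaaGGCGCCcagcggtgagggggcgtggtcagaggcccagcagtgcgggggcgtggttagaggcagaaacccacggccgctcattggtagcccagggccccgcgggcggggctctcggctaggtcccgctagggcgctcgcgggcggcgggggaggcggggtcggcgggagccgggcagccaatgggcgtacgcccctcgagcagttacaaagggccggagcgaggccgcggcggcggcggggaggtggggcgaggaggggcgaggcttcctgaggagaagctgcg
Grem1: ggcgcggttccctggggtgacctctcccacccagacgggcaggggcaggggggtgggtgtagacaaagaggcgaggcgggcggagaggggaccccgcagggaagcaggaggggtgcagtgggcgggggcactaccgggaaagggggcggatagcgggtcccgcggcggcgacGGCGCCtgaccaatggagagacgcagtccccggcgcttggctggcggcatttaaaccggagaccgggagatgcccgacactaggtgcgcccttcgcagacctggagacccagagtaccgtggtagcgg
Id2: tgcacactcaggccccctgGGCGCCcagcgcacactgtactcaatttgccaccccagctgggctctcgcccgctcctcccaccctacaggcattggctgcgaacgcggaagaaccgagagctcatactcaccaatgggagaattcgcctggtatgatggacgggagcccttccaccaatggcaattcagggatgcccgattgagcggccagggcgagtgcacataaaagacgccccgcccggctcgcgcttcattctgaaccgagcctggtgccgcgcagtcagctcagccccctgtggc
Id3: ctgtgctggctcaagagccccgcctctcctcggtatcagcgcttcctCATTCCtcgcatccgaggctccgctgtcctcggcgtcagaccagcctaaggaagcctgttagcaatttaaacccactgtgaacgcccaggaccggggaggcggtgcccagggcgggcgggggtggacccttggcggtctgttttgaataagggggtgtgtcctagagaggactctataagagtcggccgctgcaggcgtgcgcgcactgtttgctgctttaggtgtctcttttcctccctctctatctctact
Id4: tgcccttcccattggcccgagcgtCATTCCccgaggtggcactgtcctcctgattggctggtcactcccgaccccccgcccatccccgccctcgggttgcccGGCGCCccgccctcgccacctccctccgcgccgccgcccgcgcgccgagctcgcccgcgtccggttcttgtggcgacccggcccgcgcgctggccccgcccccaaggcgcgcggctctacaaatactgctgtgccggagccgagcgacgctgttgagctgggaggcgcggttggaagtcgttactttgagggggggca
GGCGCC matched at position -233 from the start in Tgfbr1, -78 in Grem1, -231 in Id2 and -148 in Id4. GGAATG matched on the minus strand at -203 in Id3 and -226 in Id4. These letters are not in the Inhba window. Among all 32851 promoters of this length, 14.7% held GGAATG, 7.15% CACGTG, 11.9% GGCGCC and 0.213% GTCTAGAC. Among the 41 promoters of the listed genes, 3 held GGAATG, 4 CACGTG, 12 GGCGCC and 1 GTCTAGAC. These promoters belong to fewer genes, since 6 of the genes have more than 1 entry. An entry was found for 32 of the 48 genes, and GGAATG was in promoters of 3 of them (Gdf15, Id3 and Id4), CACGTG of 4 (Tgfb2, Bmp4, Bmp6 and Gdf15), GGCGCC of 10 (Gdf10, Ltbp4, Tgfbr1, Bmpr1a, Bmpr2, Grem1, Smad5, Smad9, Id2 and Id4) and GTCTAGAC of 1 (Smad6). The 16 without an entry are Tgfb3, Bmp2, Bmp7, Gdf5, Gdf6, Tgfbr3, Acvrl1, Nog, Chrdl1, Fst, Bambi, Smad2, Smad4, Smad7, Skil and Id1. A match describes the letters and is neither a bound site nor a cause.

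Inhba (ENSMUSG00000041324) encodes the beta A subunit of activins, ligands that signal through Smad2 and Smad3. Normalized Inhba CPM was 0.675, 3.58 and 1.06 in EV, 36.5, 34.7 and 94.3 in TAZ4SA and 26.4, 22.0 and 27.7 in YAP5SA. Inhba was at 1.58, 1.86 and 1.64 in TAZ-CAMTA1, 6.02, 5.12 and 3.99 in YAP-TFE3, 0.939, 1.14 and 0.941 in TFE3, and at 11.1, 4.70 and 5.33 in EVsub and 23.4, 20.8 and 15.2 in CAMTA1. TAZ4SA replicate 3 was the highest, and every TAZ4SA and YAP5SA library was above every EV library. The TAZ-CAMTA1 libraries lay inside the EV range, whose top was EV replicate 2, and the YAP-TFE3 libraries lay just above it. With edgeR, Inhba had log2 fold changes against EV of 4.99 (SE 0.47, adjusted p = 1.39e-08) in TAZ4SA, 3.86 (SE 0.46, adjusted p = 1.39e-07) in YAP5SA and 1.53 (SE 0.46, adjusted p = 0.0268) in YAP-TFE3. Not called for Inhba was -0.04 in TAZ-CAMTA1. Inhba also rose in EVsub against EV, at 2.00 (SE 0.46, adjusted p = 0.00320) and rose in CAMTA1 against EVsub, at 1.50 (SE 0.39, adjusted p = 0.0460). Inhba in TAZ4SA was at 5.99 without EV replicate 2 and 4.35 without TAZ4SA replicate 3. Inhba in YAP5SA was at 4.86 without EV replicate 2. Inhba's YAP-TFE3 call was lost without EV replicate 1 or 3 or YAP-TFE3 replicate 1 or 2 (log2 fold change 1.13 to 1.51) and with a fit of the 2 groups alone. Inhba in YAP-TFE3 was at 2.53 without EV replicate 2. Inhba's EVsub call was lost with a fit of the 2 groups alone. Inhba in EVsub was at 3.01 without EV replicate 2. Inhba's CAMTA1 against EVsub call was lost without CAMTA1 replicate 1 or 2 or EVsub replicate 2 or 3 (log2 fold change 1.27 to 1.46) and with library totals, a minimum of 10 counts in every library, the replicate block or a fit of the 2 groups alone. Without EV replicate 2, Inhba in TAZ-CAMTA1 was at 0.96 (adjusted p = 0.214).

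Tgfb3 (ENSMUSG00000021253) encodes a TGF-beta ligand and had the highest level per length of the ligands. Tgfb3 levels in normalized CPM were 198, 159 and 221 in EV, 33.5, 51.0 and 55.2 in TAZ4SA and 36.0, 44.1 and 39 in YAP5SA. For Tgfb3 the others gave 131, 121 and 113 in TAZ-CAMTA1, 82.9, 93.8 and 112 in YAP-TFE3, 141, 126 and 120 in TFE3, and 81.4, 111 and 132 in EVsub and 60.9, 78.8 and 85.6 in CAMTA1. The TAZ4SA and YAP5SA libraries were below those of every other group, and the fusion libraries lay between them and EV, with no overlap with EV. Against EV, Tgfb3 was called at -2.05 (SE 0.19, adjusted p = 1.08e-08) in TAZ4SA, -2.28 (SE 0.19, adjusted p = 7.62e-10) in YAP5SA, -0.66 (SE 0.18, adjusted p = 0.0108) in TAZ-CAMTA1 and -1.0 (SE 0.18, adjusted p = 4.40e-04) in YAP-TFE3. Tgfb3 also fell in EVsub against EV, at -0.83 (SE 0.18, adjusted p = 0.00226). Tgfb3's TAZ-CAMTA1 call was lost without EV replicate 3 or TAZ-CAMTA1 replicate 3 (log2 fold change -0.61 to -0.55).

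Tgfb2 (ENSMUSG00000039239) encodes another TGF-beta ligand. Tgfb2 was at 161, 93.8 and 152 in EV, 58.9, 75.3 and 55.9 in TAZ4SA and 116, 123 and 103 in YAP5SA (normalized CPM). Tgfb2 stood at 109, 75.7 and 93.0 in TAZ-CAMTA1, 84.1, 67.5 and 86.9 in YAP-TFE3, 169, 194 and 197 in TFE3, and at 29.8, 47.8 and 43.8 in EVsub and 21.9, 28.5 and 35.0 in CAMTA1. The TAZ4SA, YAP-TFE3 and EVsub libraries were below every EV library, EVsub the lowest of them, while YAP5SA and TAZ-CAMTA1 overlapped EV. Tgfb2 had log2 fold changes against EV of -1.10 (SE 0.20, adjusted p = 8.72e-05) in TAZ4SA and -0.77 (SE 0.20, adjusted p = 0.00961) in YAP-TFE3. Tgfb2 was not called at -0.26 in YAP5SA or -0.55 in TAZ-CAMTA1. Tgfb2 also fell in EVsub against EV, at -1.75 (SE 0.21, adjusted p = 7.98e-06). Tgfb2's YAP-TFE3 call was lost without EV replicate 1 or 3 or YAP-TFE3 replicate 2 (log2 fold change -0.68 to -0.63). Tgfb2 without EV replicate 2 was called in YAP5SA, at -0.46 (adjusted p = 0.0397), and TAZ-CAMTA1, at -0.76 (adjusted p = 0.00699).

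Tgfb1 (ENSMUSG00000002603) encodes the TGF-beta form studied most in fibrosis. Normalized Tgfb1 CPM was 40.3, 39.6 and 44.2 in EV, 33.0, 60.3 and 29.2 in TAZ4SA and 24.1, 27.3 and 22.2 in YAP5SA. Tgfb1 was at 22.6, 17.2 and 16.9 in TAZ-CAMTA1, 33.6, 28.2 and 35.7 in YAP-TFE3, 59.4, 57.3 and 52.4 in TFE3, and at 17.4, 40.4 and 29.2 in EVsub and 20.2, 18.9 and 21.6 in CAMTA1. Every YAP5SA, TAZ-CAMTA1 and YAP-TFE3 library was below every EV library, whereas TAZ4SA replicate 2 was above EV and the other 2 TAZ4SA libraries were below it. With edgeR, Tgfb1 had log2 fold changes against EV of -0.75 (SE 0.24, adjusted p = 0.00708) in YAP5SA and -1.13 (SE 0.24, adjusted p = 0.00142) in TAZ-CAMTA1. Not called for Tgfb1 were -0.03 in TAZ4SA and -0.35 in YAP-TFE3.

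Gdf11 (ENSMUSG00000025352) encodes an activin-like ligand close to myostatin. Gdf11 levels in normalized CPM were 45.4, 50.5 and 46.0 in EV, 27.1, 32.5 and 28.0 in TAZ4SA and 24.2, 18 and 19.7 in YAP5SA. For Gdf11 the others gave 40.6, 38.5 and 33.3 in TAZ-CAMTA1, 28.4, 28.5 and 39 in YAP-TFE3, 74.9, 79.8 and 82.5 in TFE3, and 28.1, 30.1 and 33.7 in EVsub and 42.4, 32.2 and 31.2 in CAMTA1. TFE3 libraries were above every EV library and those of TAZ4SA, YAP5SA and both fusions below, YAP5SA being the lowest. Against EV, Gdf11 was called at -0.70 (SE 0.14, adjusted p = 2.52e-04) in TAZ4SA, -1.19 (SE 0.14, adjusted p = 1.84e-07) in YAP5SA and -0.56 (SE 0.14, adjusted p = 0.00726) in YAP-TFE3. Gdf11 was uncalled at -0.34 in TAZ-CAMTA1. Gdf11 also rose in TFE3 against EV, at 0.74 (SE 0.14, adjusted p = 0.00333) and fell in EVsub against EV, at -0.62 (SE 0.14, adjusted p = 0.00292). Gdf11's YAP-TFE3 call was lost without YAP-TFE3 replicate 1 (log2 fold change -0.51).

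Gdf15 and Gdf5 were under the mean count set for describing genes library by library, and are given because of their values. Gdf15, a stress-induced relative of the family that signals through the GFRAL receptor, was at 3.32, 4.72 and 2.51 normalized CPM in TAZ4SA, 4.31, 3.14 and 3.23 in YAP5SA and 0.849, 1.07 and 0.958 in TAZ-CAMTA1. It was at 0, 0.0955 and 0 in EV and at 0 in every YAP-TFE3 library. The Gdf15 ratio to EV was 112 (95% counting interval 30.5 to 930, from 187 and 2 counts) in TAZ4SA, 120 (95% counting interval 32.8 to 1000, from 199 and 2 counts) in YAP5SA and 32.1 (95% counting interval 8.55 to 270, from 68 and 2 counts) in TAZ-CAMTA1. In the same order the ratios were 72.4, 77.9 and 20.8 without EV replicate 1, 74.2, 79.8 and 21.3 without EV replicate 3 and at least 51.3, 55.2 and 14.7 without EV replicate 2, which held both EV counts. These intervals, and the floors of 3 counts over a group used elsewhere, cover counting error only. The adjusted p against EV was 3.17e-08 in TAZ4SA, 8.98e-09 in YAP5SA and 5.34e-05 in TAZ-CAMTA1. Gdf5, a BMP-type ligand of joints, was at 0.645, 0.899 and 0.923 in TAZ4SA and 0.411, 0.540 and 0.697 in YAP5SA, above its EV values of 0.0422, 0 and 0.265. Its log2 fold change was 2.92 (SE 0.72, adjusted p = 0.00152) in TAZ4SA and 2.33 (SE 0.76, adjusted p = 0.00966) in YAP5SA. Gdf5 in TAZ4SA was at 4.89 without EV replicate 3. Gdf5 in YAP5SA was at 4.30 without EV replicate 3. Gdf5 and Gdf15 passed the mean count only through the groups in which they were high, and with no filter on low counts these calls were kept. Of the ligands under the limit, which were not tested, Bmp4 had 17 counts over the TAZ4SA libraries, 11 of them in replicate 3, and 1 over EV. Bmp6 in YAP-TFE3 had a ratio to EV of 11.3 (95% counting interval 3.58 to 57.3, from 37 and 3 counts). Bmp2, Bmp7, Inhbb, Gdf6 and Gdf10 had means of 0.125, 0.250, 0.125, 0.125 and 0.0417 counts.

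Ltbp1 (ENSMUSG00000001870) encodes a protein that binds latent TGF-beta and anchors it in the matrix. Ltbp1 was at 46.8, 36.3 and 42.3 in EV, 152, 133 and 106 in TAZ4SA and 111, 130 and 136 in YAP5SA (normalized CPM). Ltbp1 stood at 81.3, 62.6 and 50.1 in TAZ-CAMTA1, 83.5, 84.9 and 100 in YAP-TFE3, 33.7, 35.2 and 35.7 in TFE3, and at 181, 156 and 105 in EVsub and 174, 199 and 161 in CAMTA1. All TAZ4SA, YAP5SA, TAZ-CAMTA1, YAP-TFE3 and EVsub libraries were above every EV library, TAZ-CAMTA1 by the least. Ltbp1 had log2 fold changes against EV of 1.64 (SE 0.18, adjusted p = 1.63e-07) in TAZ4SA, 1.59 (SE 0.18, adjusted p = 9.54e-08) in YAP5SA, 0.63 (SE 0.18, adjusted p = 0.0147) in TAZ-CAMTA1 and 1.10 (SE 0.18, adjusted p = 1.61e-04) in YAP-TFE3. Ltbp1 also rose in EVsub against EV, at 1.82 (SE 0.18, adjusted p = 1.43e-06). Ltbp1's TAZ-CAMTA1 call was lost without EV replicate 2 or TAZ-CAMTA1 replicate 1 (log2 fold change 0.43 to 0.54).

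Ltbp2 (ENSMUSG00000002020) encodes a matrix protein of the same family that does not bind latent TGF-beta. Normalized Ltbp2 CPM was 21.2, 9.93 and 18.8 in EV, 23.4, 21.4 and 21.9 in TAZ4SA and 26.3, 30.2 and 28.8 in YAP5SA. Ltbp2 was at 33.7, 35.4 and 33.1 in TAZ-CAMTA1, 14.0, 22.8 and 18.4 in YAP-TFE3, 12.1, 14.5 and 13.7 in TFE3, and at 40.1, 84.6 and 40.2 in EVsub and 39.2, 30.7 and 27.1 in CAMTA1. The TAZ4SA, YAP5SA, TAZ-CAMTA1 and EVsub libraries were above every EV library, EVsub replicate 2 was the highest, and EV replicate 2 the lowest. With edgeR, Ltbp2 had log2 fold changes against EV of 0.77 (SE 0.26, adjusted p = 0.0103) in YAP5SA and 1.03 (SE 0.25, adjusted p = 0.00529) in TAZ-CAMTA1. Not called for Ltbp2 were 0.42 in TAZ4SA and 0.15 in YAP-TFE3. Ltbp2 also rose in EVsub against EV, at 1.72 (SE 0.26, adjusted p = 7.69e-05). Ltbp2's YAP5SA call was lost without EV replicate 2 (log2 fold change 0.51) and with library totals.

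Ltbp3 (ENSMUSG00000024940) also binds latent TGF-beta and had the highest level per length of the latency proteins. Ltbp3 levels in normalized CPM were 279, 300 and 328 in EV, 201, 281 and 240 in TAZ4SA and 154, 145 and 144 in YAP5SA. For Ltbp3 the others gave 364, 307 and 320 in TAZ-CAMTA1, 385, 351 and 364 in YAP-TFE3, 278, 285 and 243 in TFE3, and 285, 383 and 296 in EVsub and 290, 326 and 301 in CAMTA1. YAP5SA libraries were below every other library, YAP-TFE3 libraries were above EV, and those of TAZ4SA and TAZ-CAMTA1 overlapped EV. Against EV, Ltbp3 was called at -0.33 (SE 0.12, adjusted p = 0.0275) in TAZ4SA and -1.03 (SE 0.13, adjusted p = 1.95e-07) in YAP5SA. Ltbp3 was uncalled at 0.13 in TAZ-CAMTA1 and 0.28 in YAP-TFE3. Ltbp3's TAZ4SA call was lost without EV replicate 3 or TAZ4SA replicate 1 (log2 fold change -0.26 to -0.21) and with a fit of the 2 groups alone.

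Ltbp4 (ENSMUSG00000040488) encodes a latency protein needed for elastic fibres. Ltbp4 was at 47.1, 34.5 and 50.2 in EV, 21, 32.5 and 27.7 in TAZ4SA and 23.5, 24 and 25.2 in YAP5SA (normalized CPM). Ltbp4 stood at 32.6, 32.8 and 34.6 in TAZ-CAMTA1, 27.5, 34.5 and 31.6 in YAP-TFE3, 36.5, 39.3 and 28.7 in TFE3, and at 34.3, 55.1 and 45.9 in EVsub and 15.5, 24.3 and 27.3 in CAMTA1. The TAZ4SA and YAP5SA libraries were below every EV library, TAZ-CAMTA1 overlapped EV narrowly, and the CAMTA1 libraries were below those of EVsub. Ltbp4 had log2 fold changes against EV of -0.70 (SE 0.20, adjusted p = 0.00433) in TAZ4SA and -0.86 (SE 0.20, adjusted p = 5.64e-04) in YAP5SA. Ltbp4 was not called at -0.40 in TAZ-CAMTA1 or -0.49 in YAP-TFE3. Ltbp4 also fell in CAMTA1 against EVsub, at -1.01 (SE 0.20, adjusted p = 0.00775). Ltbp4's CAMTA1 against EVsub call was lost without CAMTA1 replicate 1 or EVsub replicate 2 (log2 fold change -0.85 to -0.81) and with a fit of the 2 groups alone.

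Tgfbr1 (ENSMUSG00000007613) encodes the type I TGF-beta receptor, the kinase that phosphorylates Smad2 and Smad3, and its promoter is among those printed above. Normalized Tgfbr1 CPM was 68.3, 70.6 and 80.6 in EV, 13.5, 6.0 and 19.5 in TAZ4SA and 3.23, 4.46 and 5.64 in YAP5SA. Tgfbr1 was at 70.4, 63.6 and 73.9 in TAZ-CAMTA1, 100, 79.5 and 69.4 in YAP-TFE3, 85.8, 93.5 and 101 in TFE3, and at 34.4, 34.3 and 34.0 in EVsub and 34.0, 36.2 and 37.3 in CAMTA1. The YAP5SA libraries were the lowest, just under TAZ4SA replicate 2, and both groups were well below EV, whereas the fusion libraries overlapped EV. With edgeR, Tgfbr1 had log2 fold changes against EV of -2.47 (SE 0.24, adjusted p = 2.52e-08) in TAZ4SA and -4.05 (SE 0.27, adjusted p = 2.70e-11) in YAP5SA. Not called for Tgfbr1 were -0.08 in TAZ-CAMTA1 and 0.18 in YAP-TFE3. Tgfbr1 also fell in EVsub against EV, at -1.10 (SE 0.23, adjusted p = 0.00144).

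Bmpr1a (ENSMUSG00000021796) encodes a type I BMP receptor. Bmpr1a levels in normalized CPM were 131, 148 and 141 in EV, 75.8, 52.5 and 91.7 in TAZ4SA and 35.6, 46.0 and 38.3 in YAP5SA. For Bmpr1a the others gave 154, 153 and 153 in TAZ-CAMTA1, 164, 145 and 147 in YAP-TFE3, 131, 126 and 135 in TFE3, and 120, 93.7 and 118 in EVsub and 102, 112 and 118 in CAMTA1. Every YAP5SA library was below every TAZ4SA library, and these were below EV, while the YAP-TFE3 libraries overlapped EV and the TAZ-CAMTA1 libraries lay slightly above it. Against EV, Bmpr1a was called at -0.93 (SE 0.14, adjusted p = 1.10e-05) in TAZ4SA and -1.81 (SE 0.15, adjusted p = 5.17e-10) in YAP5SA. Bmpr1a was uncalled at 0.13 in TAZ-CAMTA1 and 0.12 in YAP-TFE3.

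Tgfbr3 (ENSMUSG00000029287) encodes betaglycan, a coreceptor that presents TGF-beta, and had the highest level per length of the receptors. Tgfbr3 was at 250, 344 and 280 in EV, 147, 159 and 123 in TAZ4SA and 87.0, 103 and 89.5 in YAP5SA (normalized CPM). Tgfbr3 stood at 276, 289 and 326 in TAZ-CAMTA1, 303, 284 and 273 in YAP-TFE3, 229, 200 and 201 in TFE3, and at 206, 187 and 236 in EVsub and 208, 251 and 285 in CAMTA1. TAZ4SA and YAP5SA libraries were below all others, and the fusion libraries lay inside the EV range. Tgfbr3 had log2 fold changes against EV of -1.03 (SE 0.14, adjusted p = 1.43e-06) in TAZ4SA and -1.65 (SE 0.14, adjusted p = 7.62e-10) in YAP5SA. Tgfbr3 was not called at 0.03 in TAZ-CAMTA1 or -0.02 in YAP-TFE3. Tgfbr3 also fell in EVsub against EV, at -0.48 (SE 0.13, adjusted p = 0.0136). Tgfbr3's EVsub call was lost without EV replicate 2 or EVsub replicate 2 (log2 fold change -0.40 to -0.34) and with a fit of the 2 groups alone.

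Acvr2a (ENSMUSG00000052155) encodes a type II activin receptor. Normalized Acvr2a CPM was 15.2, 20.9 and 17.8 in EV, 15.5, 9.14 and 19.8 in TAZ4SA and 9.04, 8.98 and 7.41 in YAP5SA. Acvr2a was at 23.5, 24.5 and 29.5 in TAZ-CAMTA1, 49.7, 32.1 and 24.8 in YAP-TFE3, 16.8, 16.8 and 20.6 in TFE3, and at 19.0, 15.3 and 16.5 in EVsub and 19.5, 19.0 and 21.9 in CAMTA1. The fusion libraries were above every EV library, with YAP-TFE3 replicate 1 the highest, and the YAP5SA libraries were below every EV library. TAZ4SA overlapped EV. With edgeR, Acvr2a had log2 fold changes against EV of -1.08 (SE 0.23, adjusted p = 3.02e-04) in YAP5SA and 0.98 (SE 0.22, adjusted p = 0.00348) in YAP-TFE3. Not called for Acvr2a were -0.26 in TAZ4SA and 0.53 in TAZ-CAMTA1. Acvr2a's YAP-TFE3 call was lost without YAP-TFE3 replicate 1 (log2 fold change 0.64).

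Tgfbr2 (ENSMUSG00000032440) encodes the type II TGF-beta receptor. Tgfbr2 levels in normalized CPM were 205, 252 and 235 in EV, 140, 152 and 192 in TAZ4SA and 172, 140 and 130 in YAP5SA. For Tgfbr2 the others gave 258, 281 and 274 in TAZ-CAMTA1, 195, 148 and 186 in YAP-TFE3, 158, 154 and 143 in TFE3, and 95.4, 122 and 147 in EVsub and 77.7, 93.8 and 111 in CAMTA1. Libraries of TAZ4SA, YAP5SA, YAP-TFE3, TFE3 and EVsub were below every EV library, and those of TAZ-CAMTA1 were slightly above. Against EV, Tgfbr2 was called at -0.51 (SE 0.16, adjusted p = 0.00823) in TAZ4SA and -0.65 (SE 0.16, adjusted p = 9.80e-04) in YAP5SA. Tgfbr2 was uncalled at 0.23 in TAZ-CAMTA1 and -0.38 in YAP-TFE3. Tgfbr2 also fell in TFE3 against EV, at -0.60 (SE 0.16, adjusted p = 0.0354) and fell in EVsub against EV, at -0.92 (SE 0.16, adjusted p = 2.87e-04). Tgfbr2's TAZ4SA call was lost without TAZ4SA replicate 1 (log2 fold change -0.42). Tgfbr2's TFE3 call was lost without EV replicate 2 or 3 or TFE3 replicate 1, 2 or 3 (log2 fold change -0.63 to -0.53) and with library totals.

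Of the remaining receptors, Acvrl1, a type I receptor best known from endothelium and described because of its values, was at 0.253, 0.286 and 0.177 normalized CPM in EV, 0.943, 2.02 and 0.967 in TAZ4SA and 4.98, 3.39 and 3.86 in YAP5SA. It was at 0.728, 0.652 and 0.399 in TAZ-CAMTA1 and 1.35, 1.41 and 0.679 in YAP-TFE3. The YAP5SA libraries were the highest, all of these libraries were above EV, and TAZ4SA replicate 2 stood apart. Acvrl1 had log2 fold changes against EV of 2.38 (SE 0.45, adjusted p = 1.23e-04) in TAZ4SA, 4.07 (SE 0.42, adjusted p = 1.59e-08) in YAP5SA and 2.25 (SE 0.45, adjusted p = 0.00105) in YAP-TFE3, and in TAZ-CAMTA1 it was 1.29 (SE 0.48, adjusted p = 0.0595), not called. Acvr1, a type I receptor for BMPs, was lower in all of TAZ4SA, YAP5SA, TAZ-CAMTA1 and YAP-TFE3, with log2 fold changes between -0.89 and -0.49. Acvr1's YAP-TFE3 call was lost without EV replicate 3 or YAP-TFE3 replicate 1 (log2 fold change -0.46 to -0.41). Bmpr2, the type II BMP receptor, was not called in these 4 comparisons, with log2 fold changes between 0.10 and 0.31. Eng was called higher in TAZ4SA against EV, at 0.64, and was not called in YAP5SA or the fusions. Eng's TAZ4SA call was lost with any 1 EV or TAZ4SA library left out (log2 fold change 0.52 to 0.73). Bmpr1b had 18 counts in TAZ4SA (6, 1 and 11) and 0 in EV.

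**Figure D3:**
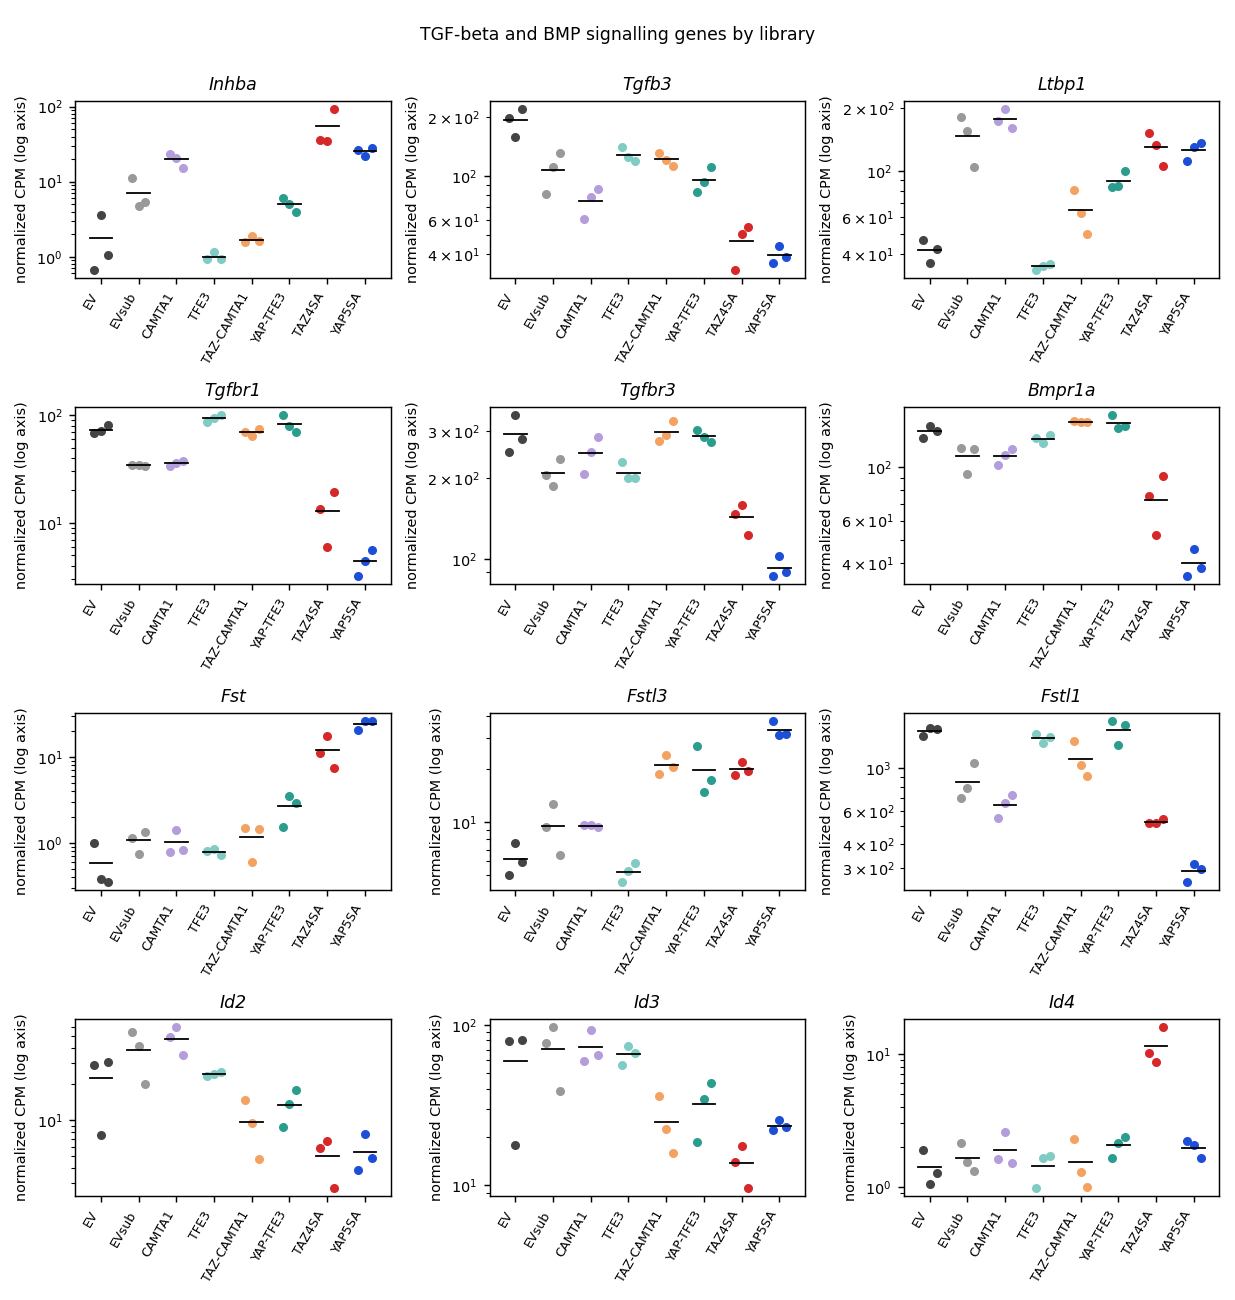
Normalized CPM (log axis) of 12 of the genes in each of the 24 libraries, as points by group along the horizontal axis, with a line at each group's mean. Tgfbr1, Tgfbr3, Bmpr1a and Fstl1 are low in TAZ4SA and YAP5SA and near EV in YAP-TFE3, and EV replicate 2 sits apart for Inhba, Id2 and Id3.

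Fst (ENSMUSG00000021765) encodes follistatin, which binds and neutralizes activins. Fst was at 1.01, 0.382 and 0.354 in EV, 11.3, 17.5 and 7.43 in TAZ4SA and 20.6, 26.1 and 26.4 in YAP5SA (normalized CPM). Fst stood at 1.50, 0.606 and 1.44 in TAZ-CAMTA1, 1.55, 3.52 and 2.93 in YAP-TFE3, 0.805, 0.844 and 0.732 in TFE3, and at 1.14, 0.748 and 1.35 in EVsub and 0.793, 1.43 and 0.835 in CAMTA1. YAP5SA libraries were the highest, then those of TAZ4SA and YAP-TFE3, all above every EV library, and TAZ-CAMTA1 overlapped EV. Fst had log2 fold changes against EV of 4.33 (SE 0.41, adjusted p = 1.49e-08) in TAZ4SA, 5.35 (SE 0.41, adjusted p = 1.98e-10) in YAP5SA and 2.18 (SE 0.42, adjusted p = 8.57e-04) in YAP-TFE3. Fst was not called at 1.01 in TAZ-CAMTA1. Fst in TAZ4SA was at 5.01 without EV replicate 1. Fst in YAP5SA was at 6.03 without EV replicate 1. Fst in YAP-TFE3 was at 2.86 without EV replicate 1.

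Grem1 (ENSMUSG00000074934) encodes gremlin, a secreted BMP antagonist. Normalized Grem1 CPM was 0.464, 1.62 and 0.531 in EV, 0.0496, 0 and 0.0440 in TAZ4SA and 0.154, 0.294 and 0.317 in YAP5SA. Grem1 was at 2.02, 2.14 and 1.20 in TAZ-CAMTA1, 1.50, 2.51 and 1.66 in YAP-TFE3, 0.805, 1.39 and 0.941 in TFE3, and at 4.37, 2.10 and 2.20 in EVsub and 6.89, 8.42 and 7.17 in CAMTA1. TAZ4SA had 2 counts over its 3 libraries, the YAP5SA libraries were below every EV library, and the fusions overlapped EV. All EVsub libraries were above EV, and all CAMTA1 libraries above EVsub. EV over TAZ4SA was a ratio of 23.8 (95% counting interval 6.30 to 202, from 57 and 2 counts), at an adjusted p of 7.44e-05, and 14.0 without EV replicate 2 (adjusted p = 5.94e-04). With edgeR, Grem1 had a log2 fold change against EV of -1.75 (SE 0.55, adjusted p = 0.00717) in YAP5SA. Not called for Grem1 were 1.05 in TAZ-CAMTA1 and 1.15 in YAP-TFE3. Grem1 also rose in EVsub against EV, at 1.73 (SE 0.39, adjusted p = 0.00276) and rose in CAMTA1 against EVsub, at 1.38 (SE 0.33, adjusted p = 0.0284). Grem1's YAP5SA call was lost without EV replicate 2 (log2 fold change -0.96). Grem1's EVsub call was lost with a fit of the 2 groups alone. Grem1 in EVsub was at 2.52 without EV replicate 2. Grem1's CAMTA1 against EVsub call was lost without CAMTA1 replicate 1 or 2 or EVsub replicate 2 or 3 (log2 fold change 1.19 to 1.44) and with a fit of the 2 groups alone. Grem1 without EV replicate 2 was called higher in both fusions, at 1.83 (adjusted p = 0.00282) in TAZ-CAMTA1 and 1.93 (adjusted p = 0.00226) in YAP-TFE3.

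Fstl1 (ENSMUSG00000022816) encodes a secreted follistatin-like glycoprotein that was the most abundant of the genes per length. Fstl1 levels in normalized CPM were 1481, 1632 and 1612 in EV, 519, 515 and 544 in TAZ4SA and 255, 317 and 296 in YAP5SA. For Fstl1 the others gave 1384, 1045 and 909 in TAZ-CAMTA1, 1769, 1318 and 1677 in YAP-TFE3, 1508, 1363 and 1456 in TFE3, and 698, 791 and 1069 in EVsub and 550, 661 and 727 in CAMTA1. YAP5SA libraries were the lowest of all groups, TAZ4SA libraries next, and those of TAZ-CAMTA1 were below EV, while YAP-TFE3 overlapped EV. Against EV, Fstl1 was called at -1.58 (SE 0.17, adjusted p = 6.60e-08) in TAZ4SA, -2.44 (SE 0.17, adjusted p = 5.45e-11) in YAP5SA and -0.50 (SE 0.16, adjusted p = 0.0297) in TAZ-CAMTA1. Fstl1 was uncalled at 0.01 in YAP-TFE3. Fstl1 also fell in EVsub against EV, at -0.89 (SE 0.16, adjusted p = 5.40e-04). Fstl1's TAZ-CAMTA1 call was lost without EV replicate 1, 2 or 3 or TAZ-CAMTA1 replicate 2 or 3 (log2 fold change -0.54 to -0.37).

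Fstl3 (ENSMUSG00000020325) encodes a second activin-binding follistatin protein. Fstl3 was at 5.02, 7.64 and 5.93 in EV, 18.6, 22.0 and 19.7 in TAZ4SA and 37.7, 31.4 and 31.9 in YAP5SA (normalized CPM). Fstl3 stood at 18.8, 24.1 and 20.7 in TAZ-CAMTA1, 27.1, 14.9 and 17.3 in YAP-TFE3, 4.60, 5.32 and 5.86 in TFE3, and at 9.38, 12.8 and 6.51 in EVsub and 9.66, 9.71 and 9.43 in CAMTA1. Every library of TAZ4SA, YAP5SA and both fusions was above every EV library, YAP5SA being the highest, and EVsub overlapped EV. Fstl3 had log2 fold changes against EV of 1.69 (SE 0.22, adjusted p = 1.31e-06) in TAZ4SA, 2.44 (SE 0.22, adjusted p = 2.80e-09) in YAP5SA, 1.78 (SE 0.22, adjusted p = 3.73e-06) in TAZ-CAMTA1 and 1.67 (SE 0.22, adjusted p = 1.20e-05) in YAP-TFE3. Fstl3 also rose in EVsub against EV, at 0.63 (SE 0.22, adjusted p = 0.0435). Fstl3's EVsub call was lost without EV replicate 1 or 3 or EVsub replicate 1 or 2 (log2 fold change 0.36 to 0.65) and with DESeq2 size factors, the replicate block or a fit of the 2 groups alone.

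Bambi (ENSMUSG00000024232) encodes a pseudoreceptor with no kinase that blocks type I receptors. Normalized Bambi CPM was 1.01, 2.20 and 1.90 in EV, 1.59, 3.82 and 2.55 in TAZ4SA and 4.0, 4.02 and 6.02 in YAP5SA. Bambi was at 2.63, 2.14 and 1.96 in TAZ-CAMTA1, 2.06, 2.65 and 2.80 in YAP-TFE3, 1.25, 1.43 and 1.71 in TFE3, and at 5.74, 4.84 and 3.21 in EVsub and 5.81, 6.62 and 5.87 in CAMTA1. The YAP5SA and EVsub libraries were above every EV library, and TAZ4SA and the fusions overlapped EV. With edgeR, Bambi had a log2 fold change against EV of 1.46 (SE 0.30, adjusted p = 1.52e-04) in YAP5SA. Not called for Bambi were 0.61 in TAZ4SA, 0.40 in TAZ-CAMTA1 and 0.57 in YAP-TFE3. Bambi also rose in EVsub against EV, at 1.44 (SE 0.29, adjusted p = 0.00128). Chrdl1, a BMP-binding chordin-like protein given here because of its values, had 3 counts over the YAP5SA libraries, and EV over YAP5SA was a ratio of 7.17 (95% counting interval 2.20 to 37.0, from 26 and 3 counts), at an adjusted p of 4.31e-04. It was 14.0 without YAP5SA replicate 1 and 4.55 without YAP5SA replicate 2. Nog, an antagonist under the limit, had a mean of 0.208 counts.

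Smad9 (ENSMUSG00000027796) encodes a Smad of the BMP branch. Smad9 levels in normalized CPM were 6.59, 3.49 and 5.62 in EV, 2.93, 3.60 and 4.79 in TAZ4SA and 0.667, 0.687 and 0.760 in YAP5SA. For Smad9 the others gave 5.54, 4.70 and 3.47 in TAZ-CAMTA1, 4.31, 4.35 and 6.45 in YAP-TFE3, 11.6, 10.9 and 11.1 in TFE3, and 11.0, 9.79 and 6.26 in EVsub and 14.8, 8.66 and 6.09 in CAMTA1. YAP5SA libraries were below all others, TFE3 libraries were above every EV library, and TAZ4SA and both fusions overlapped EV. Against EV, Smad9 was called at -2.89 (SE 0.37, adjusted p = 5.04e-07) in YAP5SA. Smad9 was uncalled at -0.47 in TAZ4SA, -0.20 in TAZ-CAMTA1 and -0.06 in YAP-TFE3. Smad9 also rose in TFE3 against EV, at 1.10 (SE 0.29, adjusted p = 0.0341). Smad9's TFE3 call was lost without EV replicate 2 or 3 or TFE3 replicate 1, 2 or 3 (log2 fold change 0.88 to 1.15).

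Smad4 (ENSMUSG00000024515) encodes the Smad shared by both branches and had the highest level per length of the signalling Smads. Smad4 was at 81.4, 71.0 and 75.2 in EV, 156, 159 and 112 in TAZ4SA and 127, 148 and 137 in YAP5SA (normalized CPM). Smad4 stood at 70.4, 76.8 and 75.6 in TAZ-CAMTA1, 68.3, 72.7 and 71.9 in YAP-TFE3, 78.0, 77.5 and 74.0 in TFE3, and at 74.3, 84.4 and 78.2 in EVsub and 66.6, 66.7 and 69.1 in CAMTA1. TAZ4SA and YAP5SA libraries were above every other library, and the fusion libraries overlapped EV. Smad4 had log2 fold changes against EV of 0.91 (SE 0.11, adjusted p = 3.14e-07) in TAZ4SA and 0.86 (SE 0.11, adjusted p = 2.76e-07) in YAP5SA. Smad4 was not called at -0.03 in TAZ-CAMTA1 or -0.10 in YAP-TFE3.

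Smad1 (ENSMUSG00000031681) encodes a Smad of the BMP branch. Normalized Smad1 CPM was 44.5, 36.3 and 46.1 in EV, 54.7, 53.9 and 34.6 in TAZ4SA and 67.9, 73.7 and 71.5 in YAP5SA. Smad1 was at 37.0, 34.4 and 32.8 in TAZ-CAMTA1, 29.0, 31.5 and 35.1 in YAP-TFE3, 49.0, 47.1 and 45.6 in TFE3, and at 34.8, 31.7 and 33.6 in EVsub and 35.8, 34.7 and 32.9 in CAMTA1. Every YAP5SA library was above every EV library, every YAP-TFE3 library was below, and TAZ4SA and TAZ-CAMTA1 overlapped EV. With edgeR, Smad1 had log2 fold changes against EV of 0.75 (SE 0.13, adjusted p = 2.86e-05) in YAP5SA and -0.41 (SE 0.13, adjusted p = 0.0375) in YAP-TFE3. Not called for Smad1 were 0.17 in TAZ4SA and -0.28 in TAZ-CAMTA1. Smad1's YAP-TFE3 call was lost without EV replicate 1 or 3 or YAP-TFE3 replicate 1 or 2 (log2 fold change -0.40 to -0.34) and with no filter on low counts.

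Smad3 (ENSMUSG00000032402) encodes a Smad of the TGF-beta branch. Smad3 levels in normalized CPM were 84.5, 85.8 and 84.2 in EV, 77.0, 78.5 and 56.2 in TAZ4SA and 56.7, 59.9 and 50.2 in YAP5SA. For Smad3 the others gave 77.1, 74.1 and 75.5 in TAZ-CAMTA1, 96.6, 100 and 87.6 in YAP-TFE3, 75.3, 72.0 and 69.0 in TFE3, and 112, 118 and 96.6 in EVsub and 97.2, 113 and 109 in CAMTA1. The TAZ4SA, YAP5SA and TAZ-CAMTA1 libraries were below the EV libraries, which lay close together, and the YAP-TFE3 and EVsub libraries were above them. Against EV, Smad3 was called at -0.27 (SE 0.11, adjusted p = 0.0450) in TAZ4SA and -0.61 (SE 0.11, adjusted p = 4.79e-05) in YAP5SA. Smad3 was uncalled at -0.17 in TAZ-CAMTA1 and 0.16 in YAP-TFE3. Smad3 also rose in EVsub against EV, at 0.36 (SE 0.11, adjusted p = 0.0220). Smad3's TAZ4SA call was lost without EV replicate 1, 2 or 3 or TAZ4SA replicate 3 (log2 fold change -0.27 to -0.13) and with no filter on low counts or a fit of the 2 groups alone. Smad3's EVsub call was lost without EV replicate 1 or 3 or EVsub replicate 1 or 2 (log2 fold change 0.30 to 0.36) and with a fit of the 2 groups alone. The other signalling Smads, Smad2 and Smad5, had log2 fold changes against EV between -0.19 and 0.25 in TAZ4SA, YAP5SA and the fusions, called only for Smad5 in TAZ4SA, at 0.25. Smad5's TAZ4SA call was lost without EV replicate 2 or 3 or TAZ4SA replicate 1 or 2 (log2 fold change 0.14 to 0.25) and with DESeq2 size factors, library totals, no filter on low counts, a minimum of 10 counts in every library or a fit of the 2 groups alone.

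Id2 (ENSMUSG00000020644) encodes an inhibitor of basic helix-loop-helix factors whose gene responds to BMP, and its promoter is printed above. Id2 was at 29.1, 7.50 and 30.8 in EV, 5.85, 6.67 and 2.73 in TAZ4SA and 3.85, 7.70 and 4.82 in YAP5SA (normalized CPM). Id2 stood at 14.7, 9.41 and 4.79 in TAZ-CAMTA1, 8.83, 13.7 and 18 in YAP-TFE3, 23.5, 24.2 and 25.2 in TFE3, and at 54.3, 41.6 and 20.1 in EVsub and 49.2, 59.8 and 34.8 in CAMTA1. EV replicates 1 and 3 were above every library of TAZ4SA, YAP5SA and the fusions. EV replicate 2 was lower than those and within the range of YAP5SA and TAZ-CAMTA1. Id2 had log2 fold changes against EV of -2.18 (SE 0.48, adjusted p = 5.99e-04) in TAZ4SA and -2.04 (SE 0.48, adjusted p = 6.41e-04) in YAP5SA. Id2 was not called at -1.23 in TAZ-CAMTA1 or -0.73 in YAP-TFE3. Id2 without EV replicate 2 was at -2.59 (adjusted p = 3.87e-05) in TAZ4SA, -2.45 (adjusted p = 3.26e-05) in YAP5SA, -1.64 (adjusted p = 0.00591) in TAZ-CAMTA1 and -1.14 (adjusted p = 0.0606) in YAP-TFE3.

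Id3 (ENSMUSG00000007872) encodes a protein of the same family and had the highest level per length of the feedback and target genes. Normalized Id3 CPM was 79.0, 17.9 and 80.8 in EV, 14.0, 17.5 and 9.63 in TAZ4SA and 22.0, 25.4 and 23.1 in YAP5SA. Id3 was at 36.0, 22.4 and 15.8 in TAZ-CAMTA1, 18.5, 34.4 and 43.2 in YAP-TFE3, 56.2, 73.6 and 66.6 in TFE3, and at 76.9, 96.9 and 38.8 in EVsub and 59.6, 92.9 and 64.7 in CAMTA1. EV replicates 1 and 3 were above every library of TAZ4SA, YAP5SA and the fusions, but EV replicate 2 was at the low end, just above the TAZ4SA libraries. With edgeR, Id3 had log2 fold changes against EV of -2.12 (SE 0.44, adjusted p = 2.83e-04) in TAZ4SA, -1.33 (SE 0.42, adjusted p = 0.00747) in YAP5SA and -1.26 (SE 0.42, adjusted p = 0.0338) in TAZ-CAMTA1. Not called for Id3 was -0.88 in YAP-TFE3. Id3's TAZ-CAMTA1 call was lost without EV replicate 1 or 3 or TAZ-CAMTA1 replicate 2 or 3 (log2 fold change -1.19 to -0.97) and with a fit of the 2 groups alone. Id3 without EV replicate 2 was at -2.56 (adjusted p = 5.21e-06) in TAZ4SA, -1.76 (adjusted p = 1.35e-04) in YAP5SA, -1.69 (adjusted p = 0.00123) in TAZ-CAMTA1 and -1.32 (adjusted p = 0.0111) in YAP-TFE3.

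Id4 (ENSMUSG00000021379) encodes another Id protein, and its promoter, like that of Id3, holds the TEAD motif. Id4 levels in normalized CPM were 1.90, 1.05 and 1.28 in EV, 10.1, 8.62 and 15.9 in TAZ4SA and 2.21, 2.06 and 1.65 in YAP5SA. For Id4 the others gave 2.31, 1.30 and 0.998 in TAZ-CAMTA1, 1.65, 2.14 and 2.38 in YAP-TFE3, 0.983, 1.65 and 1.71 in TFE3, and 2.14, 1.53 and 1.31 in EVsub and 1.62, 2.57 and 1.52 in CAMTA1. The TAZ4SA libraries were above every library of every other group, and the remaining groups overlapped EV. Against EV, Id4 was called at 3.03 (SE 0.32, adjusted p = 7.24e-08) in TAZ4SA. Id4 was uncalled at 0.48 in YAP5SA, 0.12 in TAZ-CAMTA1 and 0.54 in YAP-TFE3. Id1 was not called in TAZ4SA, YAP5SA or the fusions, at log2 fold changes between -0.88 and -0.27. Id1 without EV replicate 2 was at -1.21 (adjusted p = 0.0335) in TAZ-CAMTA1, -1.01 (adjusted p = 0.0321) in YAP5SA, -0.97 (adjusted p = 0.109) in YAP-TFE3 and -0.60 (adjusted p = 0.217) in TAZ4SA. Id1 in EVsub against EV was at 1.11 (SE 0.39, adjusted p = 0.0430). Id1's EVsub call was lost without EV replicate 1 or 2 or EVsub replicate 1 or 2 (log2 fold change 0.71 to 1.25) and with the replicate block or a fit of the 2 groups alone.

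Smad6 (ENSMUSG00000036867) encodes an inhibitory Smad that acts on the BMP branch. Smad6 was at 5.32, 2.01 and 5.35 in EV, 2.58, 5.10 and 4.35 in TAZ4SA and 1.44, 2.50 and 1.01 in YAP5SA (normalized CPM). Smad6 stood at 7.64, 4.80 and 4.51 in TAZ-CAMTA1, 4.31, 4.62 and 5.14 in YAP-TFE3, 3.22, 4.39 and 4.08 in TFE3, and at 9.34, 8.83 and 5.92 in EVsub and 10.5, 11.3 and 7.54 in CAMTA1. The YAP5SA libraries were below EV replicates 1 and 3 and around EV replicate 2, and TAZ4SA and the fusions overlapped EV. Smad6 had a log2 fold change against EV of -1.33 (SE 0.36, adjusted p = 0.00236) in YAP5SA. Smad6 was not called at -0.10 in TAZ4SA, 0.41 in TAZ-CAMTA1 or 0.15 in YAP-TFE3. Smad6 also rose in EVsub against EV, at 0.92 (SE 0.32, adjusted p = 0.0418). Smad6's EVsub call was lost without EV replicate 2 or EVsub replicate 1 or 2 (log2 fold change 0.59 to 0.84) and with the replicate block or a fit of the 2 groups alone. Without EV replicate 2, Smad6 in YAP5SA was at -1.66 (adjusted p = 1.40e-04). Smad7, the other inhibitory Smad, was not called in TAZ4SA, YAP5SA or the fusions, at log2 fold changes between 0.27 and 0.41.

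Skil (ENSMUSG00000027660) encodes SnoN, a corepressor that binds Smads. Normalized Skil CPM was 24.3, 34.2 and 26.7 in EV, 32.2, 24.7 and 52.9 in TAZ4SA and 13.5, 17.9 and 19.5 in YAP5SA. Skil was at 23.4, 22.8 and 23.1 in TAZ-CAMTA1, 43.3, 37.9 and 32.7 in YAP-TFE3, 28.3, 30.1 and 31.5 in TFE3, and at 26.5, 18.4 and 27.3 in EVsub and 43.9, 45.5 and 42.5 in CAMTA1. YAP5SA and TAZ-CAMTA1 libraries were below every EV library, TAZ4SA and YAP-TFE3 overlapped EV, and the CAMTA1 libraries were above every EVsub library. With edgeR, Skil had a log2 fold change against EV of -0.75 (SE 0.21, adjusted p = 0.00301) in YAP5SA. Not called for Skil were 0.37 in TAZ4SA, -0.30 in TAZ-CAMTA1 and 0.42 in YAP-TFE3. Skil also rose in CAMTA1 against EVsub, at 0.87 (SE 0.20, adjusted p = 0.0245). Skil's CAMTA1 against EVsub call was lost without CAMTA1 replicate 1 or 2 or EVsub replicate 2 (log2 fold change 0.71 to 0.87) and with library totals or a fit of the 2 groups alone.

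The direct contrasts ask where a fusion differs from the full-length protein it derives from, which calls against EV alone do not show. In TAZ-CAMTA1 against TAZ4SA, 13 of the 39 were higher and 13 lower (33.3% and 33.3%), where 26.6% and 28.1% of all genes tested were. The median log2 fold change was 0.20, and 0.00 over all genes. Lower in the fusion were Inhba, at -5.03 (SE 0.47, adjusted p = 2.35e-08), Fst, at -3.32 (SE 0.37, adjusted p = 2.57e-07), and Id4, at -2.91 (SE 0.31, adjusted p = 1.83e-07). The receptor Tgfbr1 was higher in TAZ-CAMTA1, at 2.39 (SE 0.24, adjusted p = 7.09e-08), as were Bmpr1a, at 1.06 (SE 0.14, adjusted p = 2.75e-06), and Tgfbr3, at 1.06 (SE 0.14, adjusted p = 1.40e-06). Tgfb3, at 1.39 (SE 0.19, adjusted p = 2.49e-06), and Fstl1, at 1.08 (SE 0.16, adjusted p = 1.17e-05), were also higher, and Smad4, at -0.94 (SE 0.11, adjusted p = 3.19e-07), Ltbp1, at -1.01 (SE 0.18, adjusted p = 7.53e-05), and Tgfb1, at -1.10 (SE 0.24, adjusted p = 5.35e-04), were lower. Grem1 in TAZ-CAMTA1 over TAZ4SA had a ratio of 49.7 (95% counting interval 13.5 to 415, from 126 and 2 counts). These calls were kept in every alternative that tested the gene. Inhba in TAZ-CAMTA1 against TAZ4SA was at -4.39 without TAZ4SA replicate 3. Fstl3, which rose against EV in both, had a difference between them of 0.08 (SE 0.21, adjusted p = 0.761), not called.

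The YAP-TFE3 against YAP5SA contrast called 16 higher and 13 lower (41% and 33.3%), and 36.4% and 34.5% of all genes. In this contrast the median of the 39 was 0.26, beside 0.05 over all genes. Tgfbr1 was higher in YAP-TFE3, at 4.23 (SE 0.27, adjusted p = 2.11e-11), with Bmpr1a at 1.92 (SE 0.15, adjusted p = 2.92e-10) and Tgfbr3 at 1.62 (SE 0.14, adjusted p = 1.20e-09). Acvr2a, at 2.06 (SE 0.24, adjusted p = 8.91e-08), Fstl1, at 2.46 (SE 0.17, adjusted p = 7.14e-11), Smad9, at 2.83 (SE 0.37, adjusted p = 6.91e-07), and Grem1, at 2.90 (SE 0.50, adjusted p = 2.28e-05), were higher in the fusion as well. Ltbp3, at 1.31 (SE 0.13, adjusted p = 7.07e-09), Tgfb3, at 1.27 (SE 0.19, adjusted p = 2.62e-06), Smad6, at 1.48 (SE 0.36, adjusted p = 9.05e-04), and Skil, at 1.16 (SE 0.21, adjusted p = 3.66e-05), were higher too. Fst, at -3.17 (SE 0.34, adjusted p = 3.90e-08), Inhba, at -2.33 (SE 0.41, adjusted p = 2.63e-05), Smad1, at -1.16 (SE 0.13, adjusted p = 9.56e-08), and Smad4, at -0.95 (SE 0.11, adjusted p = 6.46e-08), were lower. Gdf15, at 0 counts in YAP-TFE3, was at least 87.4-fold lower there than in YAP5SA, and Chrdl1 in YAP-TFE3 over YAP5SA had a ratio of 7.08 (95% counting interval 2.19 to 36.4, from 28 and 3 counts). Without YAP-TFE3 replicate 2 the Gdf15 floor was 51.8, and the Chrdl1 ratio was 13.8 without YAP5SA replicate 1 and 4.49 without YAP5SA replicate 2. These calls were kept in every alternative that tested the gene. Fstl3 was lower in YAP-TFE3 than in YAP5SA, at -0.77 (SE 0.21, adjusted p = 0.00214). Fstl3's YAP-TFE3 against YAP5SA call was lost with library totals.

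**Figure D4:**
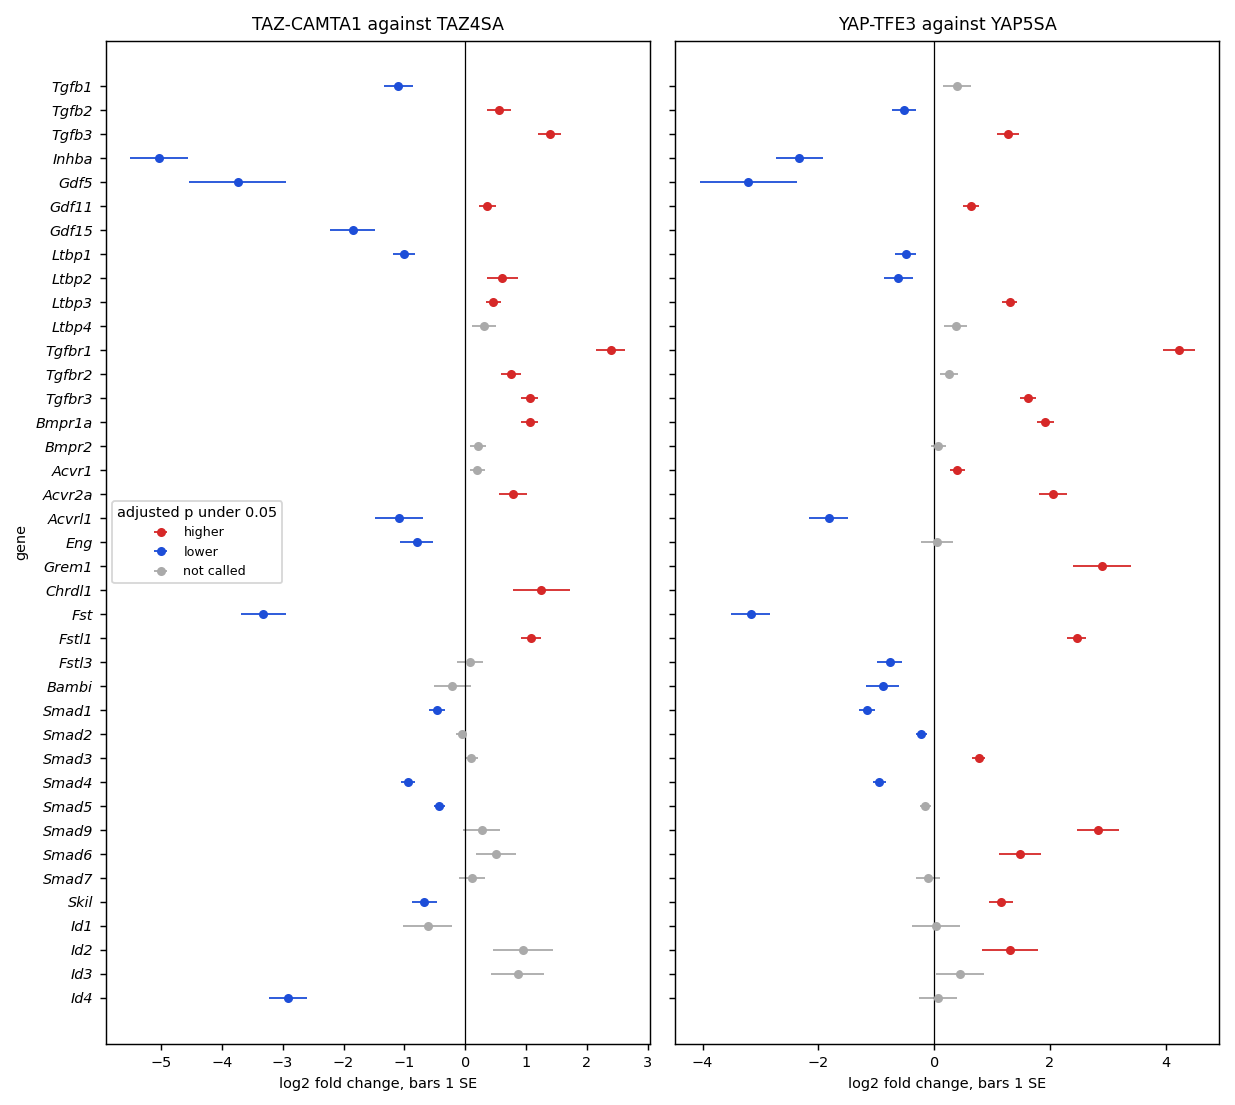
Log2 fold change (horizontal axis, bars 1 SE) of the genes tested (vertical axis) in each fusion against its full-length protein, red or blue where the adjusted p was under 0.05. Genes with a group at 3 counts or fewer are omitted. Tgfbr1 is far to the right on both sides, at 2.39 and 4.23, and Fst far to the left, at -3.32 and -3.17.

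For YAP5SA against TAZ4SA the genes called were 7 higher (17.9%) and 15 lower (38.5%), beside 19.6% and 22.8% of all genes. The median was -0.23 over the 39 and -0.05 over all genes. YAP5SA was lower than TAZ4SA in Id4, at -2.55 (SE 0.31, adjusted p = 2.81e-06), Smad9, at -2.42 (SE 0.39, adjusted p = 4.95e-05), Tgfbr1, at -1.58 (SE 0.26, adjusted p = 7.93e-05), Skil, at -1.12 (SE 0.21, adjusted p = 2.35e-04), and Bmpr1a, at -0.88 (SE 0.14, adjusted p = 7.17e-05). It was higher in Acvrl1, at 1.69 (SE 0.34, adjusted p = 5.23e-04), and Tgfb2, at 0.85 (SE 0.20, adjusted p = 0.00211). Fst, at 1.02 (SE 0.31, adjusted p = 0.0112), was higher and Inhba, at -1.13 (SE 0.37, adjusted p = 0.0192), lower. Fst's call was lost without TAZ4SA replicate 3 (log2 fold change 0.76). Inhba's call was lost without TAZ4SA replicate 3 or YAP5SA replicate 2 (log2 fold change -1.03 to -0.49).

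In YAP-TFE3 against TAZ-CAMTA1, 5 of the 39 were higher and 3 lower (12.8% and 7.69%), where 6.32% and 5.32% of all genes tested were. The median was 0.07, and 0.01 over all genes. The count of 8 was 1 without TAZ-CAMTA1 replicate 2, 2 without TAZ-CAMTA1 replicate 3, 3 without YAP-TFE3 replicate 1, 4 without YAP-TFE3 replicate 2 and 4 without YAP-TFE3 replicate 3. Gdf15 was at least 23.3-fold higher in TAZ-CAMTA1 than in YAP-TFE3, which had no Gdf15 count (13.8 without YAP-TFE3 replicate 2), and its call was kept in every alternative that tested it. Inhba, at 1.57 (SE 0.46, adjusted p = 0.0283), and Tgfb1, at 0.78 (SE 0.24, adjusted p = 0.0334), were higher in YAP-TFE3, and Ltbp2, at -0.88 (SE 0.25, adjusted p = 0.0249), and Tgfbr2, at -0.62 (SE 0.16, adjusted p = 0.0127), lower. Inhba's call was lost without TAZ-CAMTA1 replicate 1, 2 or 3 or YAP-TFE3 replicate 1 or 2 (log2 fold change 1.44 to 1.64). Tgfb1's call was lost without TAZ-CAMTA1 replicate 2 or 3 or YAP-TFE3 replicate 1 or 3 (log2 fold change 0.71 to 0.76). Ltbp2's call was lost without TAZ-CAMTA1 replicate 2 or 3 or YAP-TFE3 replicate 1 or 3 (log2 fold change -0.90 to -0.72). Tgfbr2's call was lost without TAZ-CAMTA1 replicate 2 or YAP-TFE3 replicate 2 (log2 fold change -0.59 to -0.51). Fst, Fstl1 and Skil were also called higher, each in fewer alternatives than those. Fst's call was lost without TAZ-CAMTA1 replicate 1, 2 or 3 or YAP-TFE3 replicate 2 or 3 (log2 fold change 0.88 to 1.38) and with the replicate block or a fit of the 2 groups alone. Fstl1's call was lost without TAZ-CAMTA1 replicate 2 or 3 or YAP-TFE3 replicate 1 or 3 (log2 fold change 0.39 to 0.47) and with library totals, the replicate block or a fit of the 2 groups alone. Skil's call was lost without TAZ-CAMTA1 replicate 1, 2 or 3 or YAP-TFE3 replicate 1 or 2 (log2 fold change 0.62 to 0.72) and with library totals.

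A second list named 73 other genes of the pathway, of which 71 were found in the annotation and 41 passed the mean count. Of the 41, the higher and lower counts against EV, with their shares and those of all genes tested, were 12 and 17 in TAZ4SA (29.3% and 41.5%, all 31.1% and 26.4%), 14 and 17 in YAP5SA (34.1% and 41.5%, all 36.3% and 34.9%), 9 and 7 in TAZ-CAMTA1 (22.0% and 17.1%, all 12.5% and 8.98%) and 8 and 3 in YAP-TFE3 (19.5% and 7.32%, all 10.6% and 4.74%). Other groups had 1 and 1 in TFE3 against EV (2.44% and 2.44%, all 2.36% and 1.02%), 2 and 1 in CAMTA1 against EVsub (4.88% and 2.44%, all 1.29% and 0.891%) and 5 and 10 in EVsub against EV (12.2% and 24.4%, all 12.5% and 9.59%). Direct contrasts had 16 and 10 in TAZ-CAMTA1 against TAZ4SA (39% and 24.4%, all 26.6% and 28.1%), 18 and 13 in YAP-TFE3 against YAP5SA (43.9% and 31.7%, all 36.4% and 34.5%), 7 and 11 in YAP5SA against TAZ4SA (17.1% and 26.8%, all 19.6% and 22.8%) and 6 and 1 in YAP-TFE3 against TAZ-CAMTA1 (14.6% and 2.44%, all 6.32% and 5.32%). No test of these shares was run. Values below are normalized CPM as mean ± SD (n = 3), for some of the largest changes. Thbs1, which encodes thrombospondin, an activator of latent TGF-beta, was at 628 ± 232 in EV and 2705 ± 794 in TAZ4SA and 1656 ± 379 in YAP-TFE3, for differences in log2 of 2.11 (SE 0.32, adjusted p = 7.50e-06) and 1.40 (SE 0.31, adjusted p = 0.00265). Klf10, an early TGF-beta response gene, was at 43.6 ± 5.20 in EV and 133 ± 77.7 in TAZ4SA and 244 ± 46.0 in YAP5SA, for differences in log2 of 1.60 (SE 0.29, adjusted p = 7.33e-05) and 2.48 (SE 0.30, adjusted p = 1.67e-07). Postn, a matrix target of TGF-beta, was at 2991 ± 594 in EV and 332 ± 132 in TAZ4SA and 64.2 ± 13.1 in YAP5SA, for differences in log2 of -3.17 (SE 0.44, adjusted p = 2.54e-06) and -5.54 (SE 0.49, adjusted p = 1.66e-09).

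Nbl1, a BMP antagonist, was at 90.6 ± 31.7 in EV and 10.8 ± 2.91 in TAZ4SA, for a difference in log2 of -3.08 (SE 0.27, adjusted p = 6.99e-09). Bmper, a BMP-binding protein, was at 41.6 ± 5.01 in EV and 1.42 ± 0.527 in YAP5SA, for a difference in log2 of -4.87 (SE 0.38, adjusted p = 2.54e-10). These BMP antagonists were lower, while chordin was higher in the fusions. Chrd, which encodes chordin, was at 8.28 ± 1.51 in EV and 19.6 ± 1.63 in TAZ-CAMTA1 and 17.0 ± 3.66 in YAP-TFE3, for differences in log2 of 1.24 (SE 0.20, adjusted p = 7.40e-05) and 1.04 (SE 0.20, adjusted p = 6.61e-04). Atoh8, a BMP target, was at 15.4 ± 9.90 in EV and 0.440 ± 0.320 in YAP5SA, for a difference in log2 of -5.09 (SE 0.63, adjusted p = 2.76e-07). Atoh8 in YAP5SA was at -5.88 without YAP5SA replicate 2. Atoh8 varied widely between the EV libraries. Snai2, a transcription factor induced by TGF-beta, was at 67.7 ± 12.6 in EV and 31.9 ± 3.44 in TAZ-CAMTA1 and 45.9 ± 6.58 in YAP-TFE3, for differences in log2 of -1.09 (SE 0.16, adjusted p = 3.07e-05) and -0.56 (SE 0.16, adjusted p = 0.0168). Snai2's YAP-TFE3 call was lost without EV replicate 1 or 3 or YAP-TFE3 replicate 1 or 2 (log2 fold change -0.54 to -0.44). Tgif2, a Smad corepressor, was at 17.4 ± 3.71 in EV and 8.41 ± 0.342 in TAZ-CAMTA1 and 9.53 ± 0.968 in YAP-TFE3, for differences in log2 of -1.05 (SE 0.19, adjusted p = 3.05e-04) and -0.86 (SE 0.19, adjusted p = 0.00225). Both fusions were below EV for these last genes.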

How the data were processed

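The authors deposited raw read counts per Ensembl gene for 24 NIH 3T3 libraries, made from stranded TruSeq mRNA libraries sequenced on an Illumina HiSeq and processed with bcbio-nextgen and Hisat2 on mm10. The methods also describe gene counts from Salmon through tximport, and whether the deposited counts are these, and how strand was handled, is not given in the sources used here. Of the 39017 identifiers, 37693 matched GENCODE M21, the source of symbols and exon lengths. Genes averaging 5 counts or more over the libraries (14361) were tested with edgeR 4.0.16 in R 4.3.3 (TMM, quasi-likelihood, all libraries in 1 fit, 1 coefficient per group, 11 contrasts), with Benjamini-Hochberg adjustment over all of them. Library totals ran from 16471181 to 30132586. Tables and figures used Python 3.11.15, pandas 2.3.3, numpy 2.4.6, scipy 1.17.1 and matplotlib 3.10.9, and counting intervals are exact binomial at 95%.

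The genes and both lists were chosen with earlier results of these data known. Genes were given library by library when they were among the 5 largest changes of their role against EV, called, averaging 50 counts or more and with groups that did not overlap, when they had the highest level per length of their role, or when a fusion and its full-length protein were called in opposite directions with the direct contrast called. Genes outside this rule are named where a count is small or as stated. From the second list the 3 largest rises and 3 largest falls under the same conditions were picked for TAZ4SA, YAP5SA and each fusion, not all of which are described, and Gdf1 and Hjv were not found in the annotation. Alternatives were DESeq2 1.42.0 in place of edgeR, TMM replaced by DESeq2 size factors or by library totals, the filter on low counts removed, a minimum of 10 counts in every library, the replicate number as a block, a fit of the 2 groups alone, and each library left out. A library left out leaves 2 in its group, and the shared fit estimates their spread. The chromatin, proteomics and SW872 data were not analysed here.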

Additional observations from a re-analysis of the deposited data

Results flagged for a closer look

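Acvr2a and Smad1 were called in opposite directions against EV in YAP-TFE3 and YAP5SA, and the direct contrast of those groups was called for both. Acvr2a, higher in the fusion and lower in YAP5SA, had a log2 fold change of 2.06 for YAP-TFE3 against YAP5SA, and every YAP-TFE3 library was above every YAP5SA library. Smad1, lower in the fusion and higher in YAP5SA, had one of -1.16, with every YAP-TFE3 library below every YAP5SA library. Both direct calls were kept in all 13 alternatives, whereas the calls of Acvr2a and of Smad1 in YAP-TFE3 against EV were lost in 1 and 5 of them. Those were, for Acvr2a, without YAP-TFE3 replicate 1, and for Smad1, without EV replicate 1 or 3 or YAP-TFE3 replicate 1 or 2 and with no filter on low counts.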

How the results depend on the processing

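Counts of the 39 genes called were within a factor of 3/2 of those reported, except as follows, and the cause was not tested. With no filter on low counts they were 15 in TAZ-CAMTA1 against EV and 5 in TFE3 against EV. In a fit of the 2 groups alone they were 8 in TFE3 against EV, 9 in EVsub against EV and 0 in CAMTA1 against EVsub, where edgeR gave 8 at an unadjusted p under 0.05 and DESeq2 on all libraries gave 4 calls. CAMTA1 against EVsub gave 2 with library totals and 2 with a minimum of 10 counts in every library. Leaving out 1 library at a time gave 6 to 14 in YAP-TFE3 against EV, 1 to 4 in TFE3 against EV, 0 to 7 in CAMTA1 against EVsub, 12 to 20 in EVsub against EV and 1 to 6 in YAP-TFE3 against TAZ-CAMTA1.

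Of the 188 calls of these genes over the 11 comparisons, DESeq2 size factors lost 4, library totals 22, no filter 9, a fit of the 2 groups alone 34 and DESeq2 1. A minimum of 10 counts left 155 and lost 7. Leaving out libraries lost 190 of 1128. The sign changed for 1 call, Smad2, with library totals. With the replicate block, 8 calls were lost and the counts were 26, 11, 31, 12, 3, 3 and 15 for TAZ4SA, TAZ-CAMTA1, YAP5SA, YAP-TFE3, TFE3, CAMTA1 and EVsub, and 25, 29, 22 and 7 for the direct contrasts. Correlations between libraries of the same number did not all lie above 0 in any comparison. In CAMTA1 against EVsub they were 0.252, -0.00246 and 0.410. With 3 libraries a group, these values cannot show whether libraries of the same number shared a batch, so pairing was not settled.

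With 3 libraries a group, replicates differed beyond sampling noise, and genes near 5 counts, such as Gdf5 and Chrdl1, rest on few reads. A gene that missed the threshold was not shown to be unchanged.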
